A study of Mus musculus with 8 samples.

Results

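The genes described here are those of the MHC class II pathway of antigen presentation and Ciita, its transactivator. They were taken by name from the arrays: every non-control spot whose gene name was H2-Aa, H2-Ab1, H2-Eb1, Cd74, Ciita, H2-DMa, H2-DMb1, H2-DMb2, H2-Oa or H2-Ob, with all of its probes. This gave 10 genes and 13 probes, out of 34797 gene names and 55681 probes on the array. No cut on a measured value was made, but the list itself was chosen with earlier results of these data known. Where a gene has several probes, the RefSeq probe of highest mean signal over all 8 arrays stands for it. The others are given beside it. The signals were read in thyroids of female Balb/c mice aged 8 weeks, 4 of them controls (called 1 to 4) and 4 exposed to 99mTcO4−, a technetium ion that the thyroid takes up (called S539, S588, S589 and S590). The absorbed dose to the exposed thyroids was 30 Gy, and their RNA was extracted 24 hours after the tracer was given. The study's text describes the controls as untreated in one place and as given saline in another. Each array held the labelled RNA of 1 thyroid, and the labels pair no control with an exposed mouse.

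MHC class II molecules are cell surface proteins that show peptides from ingested or endosomal protein to CD4 T cells. An alpha and a beta chain are assembled with the invariant chain CD74, which fills the peptide groove until endosomal proteases cut it away; H2-DM then exchanges the remaining fragment for peptide, and H2-DO restrains H2-DM. Dendritic cells, B cells and many macrophages carry these molecules constantly, thymic epithelium carries them as well, and most other cells, thyrocytes among them, make them mainly under interferon gamma. CIITA does not bind DNA itself. It is recruited by the factors RFX, CREB and NF-Y, which sit on the X and Y boxes that class II promoters share.

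Promoter stretches are shown for the boxes that class II genes are known for, which were found in part of the matched promoters. Promoters of 7 of the 10 genes were found in a RefSeq table of 32851 mouse promoters (GRCm38.p6, 250 bases before to 50 after each start), and those of H2-Ab1, Cd74 and Ciita were not matched. Each stretch of 62 bases is written 5′ to 3′ along the gene's own strand, and all of it lies before the start of transcription. Capitals mark the letters TGATTGG (Y box), AACNNATG (core of the X1 box) and TGACGTCA (X2 box).
H2-Aa: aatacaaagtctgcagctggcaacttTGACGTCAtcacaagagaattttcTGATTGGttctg
H2-Eb1: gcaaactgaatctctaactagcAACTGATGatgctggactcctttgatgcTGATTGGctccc
H2-DMb1: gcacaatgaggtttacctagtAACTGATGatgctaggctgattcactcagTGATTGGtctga
H2-DMb2: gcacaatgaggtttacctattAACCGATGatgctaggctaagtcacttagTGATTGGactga
H2-Oa: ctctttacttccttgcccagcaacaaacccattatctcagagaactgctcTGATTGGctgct
H2-Ob: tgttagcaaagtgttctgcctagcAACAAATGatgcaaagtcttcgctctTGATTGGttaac

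The stretches are chr17:34287862-34287923 on the minus strand for H2-Aa and, on the plus strand, chr17:34305756-34305817 for H2-Eb1, chr17:34153078-34153139 for H2-DMb1, chr17:34145107-34145168 for H2-DMb2, chr17:34092284-34092345 for H2-Oa and chr17:34238796-34238857 for H2-Ob. Searched on both strands of the whole entries, TGATTGG was found in 6 of the 7 matched genes and in 7.82% of all promoters in the table. AACNNATG was found in 4 of the 7 (H2-Eb1, H2-DMb1, H2-DMb2 and H2-Ob) and in 8.86% of all promoters. TGACGTCA was found in H2-Aa alone among the 7, and in 1.79% of all. The order AACNNATG, then 8 to 30 bases, then TGATTGG on the same strand was found in the same 4 genes and in 15 promoters of the whole table (0.0457%), that of H2-Eb2 being 1 of the others. Neither of the 2 listed starts of H2-DMa held any of the motifs. The letters searched were set after these promoters had been read, so the shares describe them and test nothing.

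The tissue label was checked first. Tg, the thyroglobulin gene, had log2 signals from 18.70 to 19.07 on the 8 arrays. Markers of neighbouring tissue were present too, with Pth of the parathyroid between 18.04 and 18.97 and Acta1 of skeletal muscle between 16.22 and 18.66. Genes of the thymus set controls 1 and 2 apart. Rag1, which recombines antigen receptor genes in developing T cells, was 11.96 and 10.64 on controls 1 and 2, 2.89 and 2.92 on controls 3 and 4, 5.45 on S539 and 2.80 to 2.86 on the other exposed arrays. Of 7 markers of developing T cells, 5 had a log2 fold change below 0 over all arrays and 0 had one once controls 1 and 2 were left out. The log2 of the summed signal of these 7 ran from 10.48 to 14.68 over controls and from 11.05 to 11.88 over exposed arrays, and that of 5 thymic epithelial markers from 9.76 to 14.35 and from 9.95 to 10.66. Between 60.5% and 77.3% of spots were well above background and 0 were saturated. All arrays lay on 1 slide, the exposed ones in the first positions, so position and exposure cannot be told apart. The labels do not say more about how the thyroids were dissected, and the members are given below with and without controls 1 and 2.

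The peptide-binding alpha chain gene H2-Aa was 4.65-fold lower in exposed than in control thyroids, and most other genes of the class II pathway had lower signals there as well, at sizes the spread between arrays did not let pass. Of the 10 genes, H2-Aa alone passed limma's threshold of 0.05 on the p adjusted over all probes, against 0.295% of the 21021 RefSeq genes called lower. None was called higher, against 0.904% of RefSeq genes and 0.587% of all probes. The measured log2 difference was below 0 for all 10, as for 53.6% of RefSeq genes. It has no settled direction for Ciita, where it was near 0 and changed sign with scaling to the 75th percentile, and gives no fold for H2-DMb2, which was below background on every array. In 7 of the 10 every exposed array lay below every control array, against 6.21% of RefSeq genes; the reverse was seen in 0 of the 10, against 5.44%. Of the 13 probes, 10 were apart in this way, against 4.37% of all probes. These 10 include both probes of H2-Ab1, which share most of their sequence, and an H2-Ob probe not well above background on any array. An unadjusted limma p under 0.05, in the lower direction, was found for 9 of the 10 genes, against 8.13% of RefSeq genes. H2-DMb2, below background on every array, is among these 9. The median log2 fold change was −1.58 over the 10 genes and −0.03 over all RefSeq genes. The genes move together on the same arrays, so these counts are not 10 independent observations. All 10 were chosen with earlier results of these data known, so the counts and the median describe the list and test nothing. The study named H2-Aa, H2-Ab1 and H2-Eb1 among genes it picked from these arrays, so their direction here is not independent evidence. In bulk tissue fewer cells that carry class II and less class II RNA per cell cannot be told apart.

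**Figure D1:**
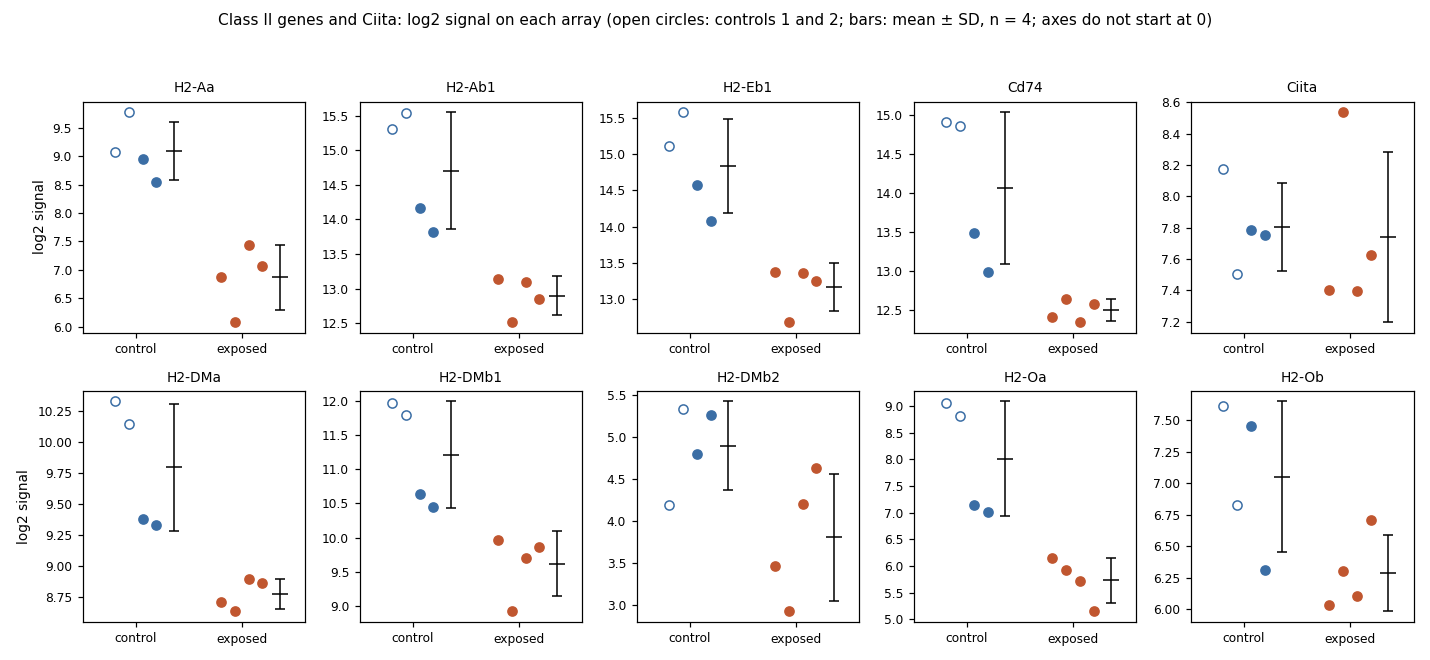
Log2 signal (y axis) of the probe used for each of the 10 genes on the 4 control and 4 exposed arrays, with open circles for controls 1 and 2 and bars for mean ± SD (n = 4). The groups are apart in 7 panels; they overlap for Ciita, H2-DMb2 and H2-Ob, and controls 1 and 2 are the highest points for H2-Aa, H2-Ab1, H2-Eb1, Cd74, H2-DMa, H2-DMb1 and H2-Oa.

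The classical chains bind peptide at the cell surface. H2-Aa, the alpha chain of I-A, was read by a probe at chr17:34421285-34421344 (mm9, minus strand). Its log2 signal was 9.07, 9.77, 8.95 and 8.54 on controls 1 to 4 and 6.88, 6.09, 7.43 and 7.07 on S539, S588, S589 and S590. The groups did not overlap, and the lowest control lay 1.11 above the highest exposed array. The log2 fold change was −2.22 (standard error, SE, 0.35; limma adjusted p = 0.0386; two-sided exact permutation p = 0.0286, the lowest possible with 4 arrays a group). It was −1.61 with normexp background correction, −1.67 without background correction and −1.68 in the deposited values, each past the threshold (limma adjusted p = 0.0132), so its size rests in part on how background was taken off. The call depended on having all 8 arrays: with any 1 left out the log2 fold change stayed between −2.41 and −1.96, while the adjusted p rose to between 0.0669 and 0.117.

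H2-Ab1, the beta chain of I-A, had 15.31, 15.53, 14.16 and 13.82 on controls 1 to 4 and 13.13, 12.52, 13.10 and 12.84 on the exposed arrays, at chr17:34406296-34406355 (mm9, plus strand). The groups were apart and controls 1 and 2 were the highest. Its log2 fold change of −1.81 (SE 0.41) missed the threshold (limma adjusted p = 0.121). A second probe of H2-Ab1 gave −1.85 (limma adjusted p = 0.110). The 2 probes are not separate evidence, since they share 51 positions and differ at 1 of these, shown here in capitals within 30 bases of each probe.
H2-Ab1 A_55_P1962747: agattacaaataaacgagacTcagactctg
H2-Ab1 A_55_P2146560: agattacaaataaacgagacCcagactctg

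That difference is T51C, counted from 1 at the 5′ end of the first probe, with the base of the first probe written first. H2-Eb1, the beta chain of I-E, had 15.11, 15.59, 14.57 and 14.08 on controls and 13.37, 12.68, 13.36 and 13.25 on exposed arrays, at chr17:34453075-34453134 (mm9, plus strand). Every exposed array was again below every control. The log2 fold change was −1.67 (SE 0.34; limma adjusted p = 0.0898). In the log2 values the authors deposited, which carry no background subtraction, H2-Ab1 and H2-Eb1 passed as well (log2 fold changes −1.81 and −1.71, limma adjusted p = 0.0455 and 0.0304), so that 3 of the 10 genes were called there, against 1.04% of RefSeq genes.

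The I-E alpha chain, named H2-Ea-ps on the array, was no member of the list but completes the I-E pair. It had 7.93, 9.07, 7.93 and 7.85 on controls and 6.67, 5.08, 6.82 and 6.53 on exposed arrays. These groups did not overlap, and the log2 fold change of −1.92 (SE 0.45) missed the threshold (limma adjusted p = 0.136); without controls 1 and 2 it was −1.61. The study picked this gene from these arrays too. The name is that of a reference strain that lacks a working gene; Balb/c mice make the chain. H2-Eb2, a further beta chain gene of this cluster, was well above background on 1 array only and gives no fold.

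Cd74 encodes the invariant chain. Its log2 signal was 14.92, 14.87, 13.49 and 12.99 on controls 1 to 4 and 12.41, 12.65, 12.35 and 12.58 on the exposed arrays. The exposed arrays lay close together (SD 0.14, n = 4) and below all controls, and controls 1 and 2 stood above controls 3 and 4 by a mean of 1.65. The log2 fold change was −1.57 (SE 0.44; limma adjusted p = 0.212).

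The peptide editor H2-DM has an alpha chain, H2-DMa, and 2 beta chain genes. H2-DMa had 10.33, 10.15, 9.38 and 9.34 on controls and 8.71, 8.64, 8.89 and 8.87 on exposed arrays. The groups were apart, with a log2 fold change of −1.02 (SE 0.26, limma adjusted p = 0.159). H2-DMb1 had 11.96, 11.79, 10.64 and 10.45 on controls and 9.97, 8.92, 9.71 and 9.87 on exposed arrays, at chr17:34297109-34297168 (mm9, plus strand). It was apart too, at −1.60 (SE 0.41, limma adjusted p = 0.171). The probe of H2-DMb2 was well above background on 0 of the 8 arrays, with log2 signals from 4.19 to 5.34 on controls and from 2.93 to 4.63 on exposed arrays, so no fold is given for it. Without H2-DMb2, left out as dim, the median over the other members was −1.60.

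H2-DO, which restrains H2-DM, is made of H2-Oa and H2-Ob and is known best from B cells and thymic epithelium. H2-Oa had 9.07, 8.82, 7.14 and 7.02 on controls and 6.14, 5.92, 5.72 and 5.15 on exposed arrays, at chr17:34232033-34232092 (mm9, plus strand). The groups did not overlap, and the log2 fold change of −2.28 was the most negative of the 10 genes, with the widest SE, 0.52 (limma adjusted p = 0.125). On 3 of the 4 exposed arrays this probe was well above background. In the deposited values its log2 fold change was −1.40, and with normexp background correction −1.30, so its size rests on how background was taken off.

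H2-Ob depended on the probe. The brightest RefSeq probe had 7.61, 6.82, 7.45 and 6.31 on controls and 6.03, 6.30, 6.10 and 6.71 on exposed arrays, so the groups overlapped (log2 fold change −0.76, SE 0.31, limma adjusted p = 0.387). The second RefSeq probe had 6.95, 7.27, 6.32 and 5.85 on controls and 5.03, 3.42, 3.47 and 3.96 on exposed arrays, where it was well above background on 3 and on 0 arrays. Set against the lowest signal measured above background, it was at least 3.52-fold lower in exposed thyroids (limma adjusted p = 0.0483), a call that was lost in 13 of 17 alternatives. Its log2 fold change was −0.77 with normexp, −0.83 without background correction and −0.83 in the deposited values, smaller than that bound, so the bound holds only for background-subtracted signals. The remaining probe, outside RefSeq, was not well above background on any array. With the second probe 2 of the 13 probes were called lower, against 0.194% of all probes.

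Ciita encodes the transactivator. Its log2 signal was 8.18, 7.50, 7.78 and 7.76 on controls 1 to 4 and 7.41, 8.54, 7.39 and 7.63 on the exposed arrays, well above background throughout. The groups overlapped, with the highest of all values on S588. The log2 fold change was −0.06 (SE 0.29; limma adjusted p = 0.946; two-sided exact permutation test, p = 0.800). It turned to 0.07 with arrays scaled to their 75th percentile, so no direction is given. The only Ciita probe is in large part of low sequence complexity, and a stretch of 20 of its bases was also found in 2 other probes of the array. How far this probe binds transcripts other than Ciita was not tested.

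Whether members changed by different amounts was tested within arrays, as the log2 difference of each gene to H2-Ab1. None of the 9 differences passed after adjustment (two-sided exact permutation tests over 70 assignments, smallest possible p 0.0286, smallest adjusted p 0.129). Relative to H2-Ab1, Ciita was higher by 1.74 (SE 0.60) in exposed than in control thyroids, and H2-DMa by 0.78 (0.23), each with an unadjusted exact permutation p of 0.0286. H2-Ob was higher by 1.04 relative to H2-Ab1 (exact permutation p = 0.0857). The differences of H2-Aa (−0.41), H2-Eb1 (0.13), Cd74 (0.24), H2-DMb1 (0.21) and H2-Oa (−0.48) had exact permutation p from 0.200 to 0.486, and those of H2-Aa and H2-Oa changed sign with normexp or no background correction. Ciita itself was at −0.06 and H2-Ab1 at −1.81, so the 1.74 comes from the lower H2-Ab1 signal and shows no rise of Ciita. Without controls 1 and 2 the differences of Ciita, H2-DMa and H2-Ob to H2-Ab1 were 1.06, 0.51 and 0.49.

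Controls 1 and 2, the arrays with thymus transcripts, carried much of the size of these differences. They exceeded controls 3 and 4 by a mean log2 of 1.86 for H2-Oa, 1.65 for Cd74, 1.44 for H2-Ab1, 1.33 for H2-DMb1, 1.02 for H2-Eb1, 0.88 for H2-DMa, 0.67 for H2-Aa and 0.07 for Ciita. With both left out, controls 3 and 4 were still above every exposed array in 8 of the 10 genes, against 17.3% of RefSeq genes; 1 of the 8 is H2-DMb2, not above background on any array. The median log2 fold change of the 10 genes was then −1.01, against −0.05 over RefSeq genes. None passed the adjusted threshold by limma with 2 controls, where 0.0285% of RefSeq genes were called lower.

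Without controls 1 and 2, H2-Aa kept most of its difference, at −1.88 (SE 0.40, limma adjusted p = 0.189). H2-Oa was at −1.35 (0.30), H2-Eb1 at −1.16 (0.28), H2-Ab1 at −1.09 (0.24), H2-DMb1 at −0.93 (0.33), Cd74 at −0.74 (0.21) and H2-DMa at −0.58 (0.16), with limma adjusted p from 0.201 to 0.328. The differences of Cd74, H2-Oa, H2-Ab1, H2-DMb1 and H2-DMa thus shrank and kept their sign. The part of thymus RNA in the values of controls 3 and 4 was not tested. Rag1 was 2.89 and 2.92 there, against 2.80 to 5.45 on exposed arrays. The thymic epithelial marker Prss16 was 7.35 and 9.11 there, against 6.08 to 7.89 on exposed arrays, and stayed at −1.02 without controls 1 and 2. Of the 5 thymic epithelial markers, 2 were then below 0, with a list median of 0.43. Their log2 summed signal was 9.76 and 10.90 on controls 3 and 4, against 9.95 to 10.66 on exposed arrays.

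**Figure D2:**
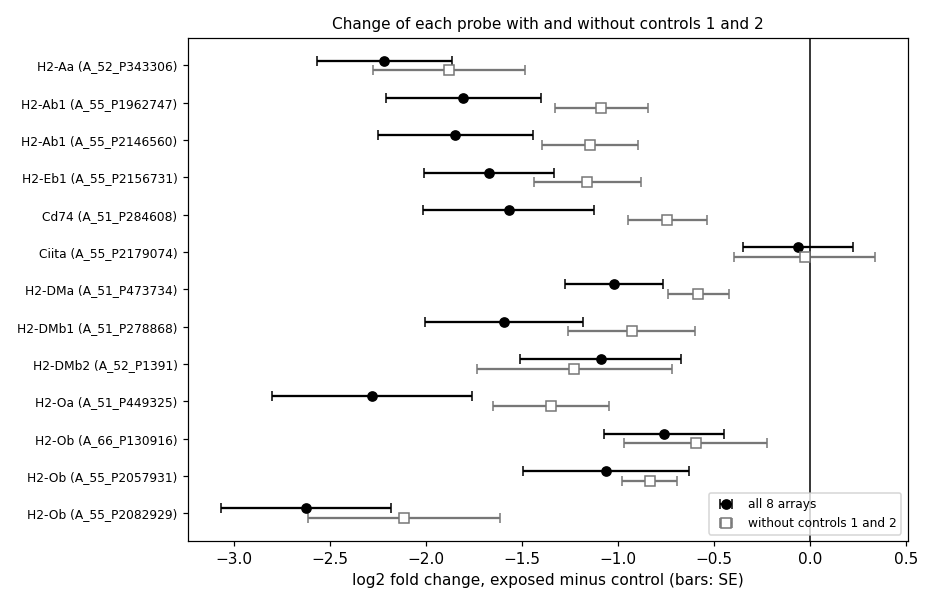
Log2 fold change of exposed over control thyroids (x axis) for each of the 13 probes, with bars for the SE, over all 8 arrays (filled circles) and without controls 1 and 2 (open squares). H2-Ab1 moves from −1.81 to −1.09 and Cd74 from −1.57 to −0.74, H2-Aa only from −2.22 to −1.88, and Ciita stays at 0 within its error; the point of H2-DMb2 comes from signals below background.

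The rest of the pathway was read through 8 lists of other genes, 66 genes in all. Of these 1 was called lower, Socs1, and 1 higher, Cd44, against 1.20% of RefSeq genes called in either direction. The study had picked Socs1, Cd44, Irf8, Cd86, Clec9a, Itgax and Cx3cr1 from these arrays too, so their directions are not independent evidence. The factors of the class II promoters showed no common direction, with 0 of 16 called and a median log2 fold change of 0.00. Rfx5, which recognises the X box, was at 0.20 (limma adjusted p = 0.776), its partner Rfxank at −0.05 and Rfxap at −0.65, and the NF-Y subunit genes Nfya, Nfyb and Nfyc, whose product binds the Y box, at 0.77, 0.58 and 0.04. The one member of this list with controls above all exposed arrays was Irf8, a transcription factor of dendritic cells and macrophages. It had 11.76, 11.73, 11.18 and 10.78 on controls and 10.15, 9.95, 10.01 and 10.04 on exposed arrays, a log2 fold change of −1.33 that just missed the threshold (SE 0.24, limma adjusted p = 0.0581); without controls 1 and 2 it was −0.95.

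Interferon gamma is the main inducer of Ciita outside professional antigen presenting cells. Ifng itself was well above background on 3 control arrays and 1 exposed array, with overlapping groups. The receptor genes Ifngr1 and Ifngr2 were at −0.12 and −0.27, and the kinase genes Jak1 and Jak2 at −0.21 and −0.07, with limma adjusted p of 0.505 or more. Socs1, which encodes an inhibitor of this signalling, had 11.19, 10.97, 10.41 and 10.57 on controls and 9.04, 7.78, 8.08 and 8.46 on exposed arrays, and fell by 2.45 log2 units (SE 0.31, limma adjusted p = 0.0175; 0.137 without controls 1 and 2). Of 14 genes that interferon gamma is known to induce, 0 were called. In 5 of the 14, against 6.21% of RefSeq genes, controls were above all exposed arrays. These were the immunoproteasome genes Psmb8 and Psmb9 and the chemokine gene Cxcl10 (−0.83, −0.81 and −1.60, or −0.42, −0.36 and −1.25 without controls 1 and 2) and the GTPase genes Igtp and Irgm2 (−0.64 and −0.66, or −0.57 and −0.63). In 1 of the 14, Gbp6, exposed arrays were above all controls (1.06, limma adjusted p = 0.155). The median of this list was −0.34.

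Endosomal processing genes did not move as one, with 0 of 10 called and a median of 0.01. Ctss, the cathepsin that trims the invariant chain in antigen presenting cells, had 12.21, 12.44, 11.61 and 11.92 on controls and 10.99, 11.01, 11.23 and 11.47 on exposed arrays. The groups were apart, at −0.87 (SE 0.22, limma adjusted p = 0.156), or −0.59 without controls 1 and 2. Ctsl and the cystatin gene Cst3 were also apart in this direction (−0.67 and −0.46), and Ctsd in the other (0.55). March1, a ubiquitin ligase that takes class II off the surface, had overlapping groups at 0.78.

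Among 7 costimulatory and inhibitory ligands that antigen presenting cells show beside class II, 0 were called. Cd86 came closest, with 7.69, 8.08, 7.39 and 7.63 on controls and 6.81, 5.73, 5.65 and 5.59 on exposed arrays. This was a log2 fold change of −1.75 with groups apart (SE 0.30, limma adjusted p = 0.0535), and of −1.57 without controls 1 and 2. Cd40 was apart as well (−1.16, or −0.55 without controls 1 and 2), and Cd80 overlapped (0.45). The T cell side of the contact, Cd4, Lag3, Cd28, Ctla4 and Icos, had 0 of 5 called. Cd4 was 13.24 and 12.07 on controls 1 and 2 and 11.41 to 12.00 on the other 6 arrays.

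At the surface CD74 binds the cytokine MIF and signals through CD44. Cd44 had 10.69, 10.58, 10.84 and 10.42 on controls and 12.03, 11.49, 12.00 and 11.58 on exposed arrays, and rose by a log2 of 1.14 (SE 0.18, limma adjusted p = 0.0382). All exposed arrays were above all controls, and the log2 fold change without controls 1 and 2 was also 1.14, with an adjusted p of 0.195. The ligand genes Mif (−0.19) and Ddt (0.08) overlapped, as did the coreceptor genes Cxcr2 and Cxcr4 (0.53 and −0.92).

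**Figure D3:**
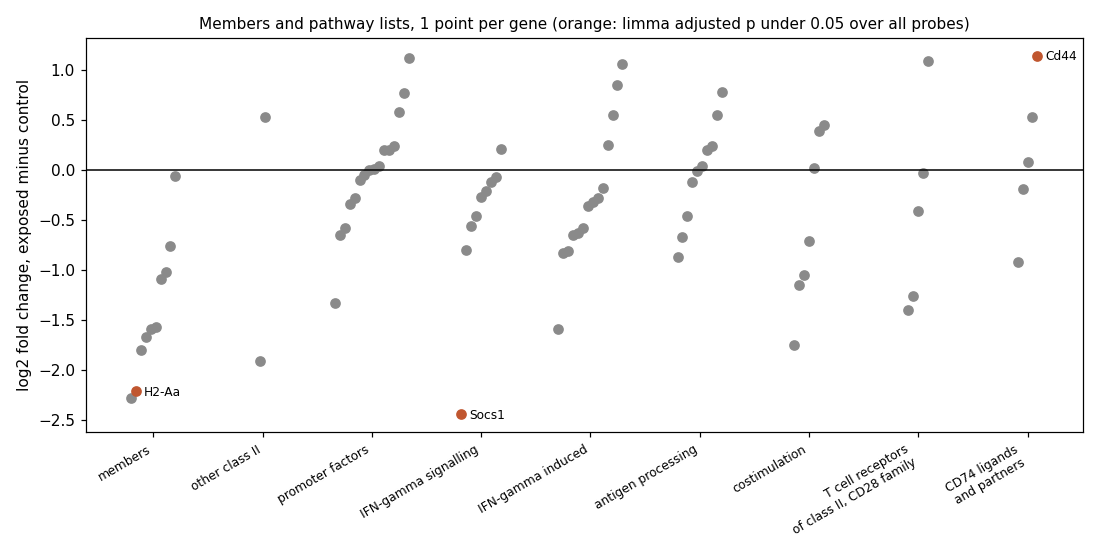
Log2 fold change of exposed over control thyroids (y axis), 1 point per gene, for the 10 members and the 8 pathway lists (x axis), with orange for genes past limma's adjusted threshold over all probes. All member points lie at or below 0, down to −2.28, that of H2-DMb2 coming from signals below background, while the lists spread on both sides of 0 with Socs1 (−2.45) and Cd44 (1.14) as the called genes.

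The cells that usually carry class II were read through their markers. Of 12 dendritic cell markers 11 had a log2 fold change below 0 (53.6% of RefSeq genes), 5 had controls above all exposed arrays (6.21%) and 1 was called lower (0.295%), with a list median of −0.38. Ccl22, 1 of the 5, was not above background on any array. Clec9a, a receptor of the dendritic cells that take up dead cells, was 6.62, 7.66, 7.25 and 6.73 on controls and not well above background on any exposed array, which is at least 4.93-fold lower (limma adjusted p = 0.00746; 0.0525 without controls 1 and 2). That bound was taken from background-subtracted signals and was not tested without the subtraction. Itgax had 9.06, 9.66, 8.33 and 8.15 on controls and 6.94, 5.72, 6.85 and 7.31 on exposed arrays (−2.09, limma adjusted p = 0.101), and −1.53 without controls 1 and 2. Xcr1, Ly75 and Ccl22 were not well above background on any array. Siglech, at 16.70 to 17.28 on all arrays, set the summed level of this list, which ran from 16.73 to 17.08 on controls and from 17.05 to 17.30 on exposed arrays. The brightest other marker, Ccr7, reached 10.31 on control 1, so this level says nothing on the rest of the list. What else the Siglech probe binds was not tested. What dendritic cell number had to do with the class II values was not tested.

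Macrophage markers split. Cx3cr1, a chemokine receptor of monocytes and some macrophages and dendritic cells, had 10.63, 11.46, 10.79 and 10.47 on controls and 8.60, 8.53, 8.17 and 8.32 on exposed arrays, and fell by 2.43 on the log2 scale (limma adjusted p = 0.00714; 0.0391 without controls 1 and 2). The complement genes C1qa, C1qb and C1qc overlapped, at −0.41, −0.26 and −0.19, and so did Lyz2 (0.12), Mertk (0.29) and Mrc1 (−0.43). Csf1r, the receptor of the macrophage growth factor CSF1, and Emr1, which encodes the marker F4/80, had controls above all exposed arrays (−0.63 and −0.58, limma adjusted p = 0.149 and 0.362). In all, 9 of 12 had a log2 fold change below 0 (53.6% of RefSeq genes), 3 had controls above all exposed arrays (6.21%) and 1 was called lower (0.295%). The log2 of the summed signal ran from 14.31 to 14.74 on controls and from 13.97 to 14.22 on exposed arrays. Of 10 B cell markers 0 were called and 0 had the groups apart, with summed levels of 11.46 to 12.10 on controls and 11.48 to 12.21 on exposed arrays. Of 9 T cell markers all had log2 fold changes below 0 (53.6% of RefSeq genes), 2 had controls above all exposed arrays (6.21%) and 0 were called. Their median was −1.96, or −0.11 without controls 1 and 2, where 6 of the 9 were below 0. Of the 2 with groups apart, Il7r was at −1.96 (limma adjusted p = 0.0642) and Thy1 at −1.02. Without controls 1 and 2 Il7r was at −1.41 and Thy1 at −0.12.

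Genes that most leukocytes share were lower on the exposed arrays on average, as the class II genes were. Of 5 such genes all had a log2 fold change below 0, 2 had controls above all exposed arrays (6.21% of RefSeq genes) and 0 were called, with a median of −1.58, or −0.43 without controls 1 and 2. The log2 of their summed signal ran from 12.11 to 14.96 on controls and from 11.60 to 12.26 on exposed arrays. Ptprc, which encodes the phosphatase CD45, had 10.22, 9.53, 7.81 and 7.65 on controls and 7.03, 7.15, 6.99 and 7.04 on exposed arrays. Its log2 fold change was −1.75 (limma adjusted p = 0.280), or −0.68 without controls 1 and 2, and that of the tetraspanin gene Cd53 was −1.43 (0.167), or −0.87. The part of leukocyte content in the class II values was not tested.

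**Figure D4:**
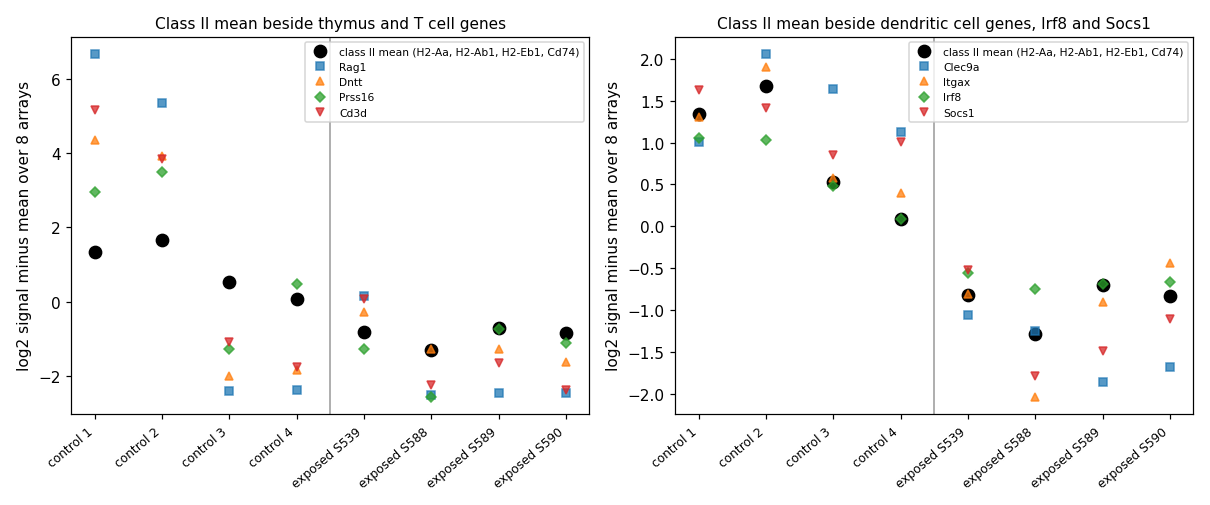
Log2 signal minus its mean over the 8 arrays (y axis) on each array (x axis), for the mean of H2-Aa, H2-Ab1, H2-Eb1 and Cd74 (black) beside thymus and T cell genes (left) and beside Clec9a, Itgax, Irf8 and Socs1 (right). The class II mean is 1.34 and 1.67 on controls 1 and 2, 0.53 and 0.09 on controls 3 and 4 and between −1.28 and −0.70 on exposed arrays; Rag1 separates controls 1 and 2 from the other 6 arrays, while the genes on the right separate all controls from all exposed arrays.

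The array profile shared by H2-Aa, H2-Ab1, H2-Eb1 and Cd74, each set to a mean of 0 over the arrays, was used to look for genes of like pattern. Among the members, H2-DMb1 lay at a root mean square distance of 0.25 log2 units from that profile, H2-DMa at 0.46, H2-Oa at 0.50, H2-Ob at 0.74, H2-DMb2 at 0.79 and Ciita at 1.11. The median distance over 13760 other RefSeq genes whose mean log2 signal reached 7 was 1.05, so Ciita was no nearer than a usual gene. Of the 10 nearest of these genes over the 8 arrays, 9 were Ear2 (0.22), Tbc1d30 (0.24), Aqp3 (0.25), Wdfy4 (0.25), Cdca7 (0.26), Wfikkn2 (0.26), Bcl2a1d (0.29), Mfi2 (0.32) and Mbnl3 (0.32). All 10 had controls above all exposed arrays, which likeness to the profile brings with it. Wdfy4, a gene used by dendritic cells, had 10.78, 11.17, 10.18 and 9.65 on controls and 8.37, 8.30, 8.25 and 8.19 on exposed arrays.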

How the data were processed

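RNA of 8 mouse thyroids was labelled with Cy3 and hybridised to one-colour Agilent arrays. The authors deposited, for every array, spot intensities written by Feature Extraction 10.7.3.1, and also a table of log2 values. The study's methods name limma, quantile normalization between slides and an adjusted p of 0.05. The deposited log2 values matched quantile-normalized log2 median intensities within 0.038.

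Here the log2 of the background-subtracted intensity was quantile-normalized, control spots were left out and the spots of a probe were averaged. Groups were compared with limma 3.58.1 in R 4.3.3 (lmFit and eBayes without covariates), and p-values were adjusted by Benjamini-Hochberg over 55681 probes. Each gene was read by its brightest RefSeq probe on average, and all probes of the members were given. The accessions of 12 of the 13 member probes were found in the RefSeq table. Within-array differences were compared by exact permutation over 70 assignments. The fit was tested on simulated data.

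The 10 members and all gene lists were chosen with earlier results of these data known. Named genes were the members, listed genes past the threshold or needed to describe a list, and the 10 nearest profiles, of which 1 is not reported here. Probes are placed as the array files place them (mm9); promoter positions are in GRCm38.p6. A fold against a group below background is a bound from the lowest signal well above background. The number of arrays limits the precision. Nothing says whether mice shared a cage or a day, so p-values measure the spread between these samples. Alternatives changed the scaling, the background correction, the probe filter, the treatment of outlier spots and of several probes per gene, and the model (a plain t-test per probe, which the study's methods name for comparisons between conditions but not for the arrays, array weights, a variance trend), used the deposited values, or left out single arrays. Leaving out controls 1 and 2 together was chosen after seeing the data.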

Additional observations from a re-analysis of the deposited data

Results flagged for a closer look

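Each of 80 groups of 4 arrays (the members' probes, the listed genes past the threshold, the nearest genes and the thymus markers) was searched for 1 array far from the other 3 by Dixon's test, which chance passes in about 4. It was passed in 2 groups, and by none of the members' probes. Rag1 was 5.45 on S539, above the other exposed arrays, and Themis, a gene of developing T cells, was 6.50 on control 1, above the other controls. The cause was not tested in either case.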

How the results depend on the processing

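The median log2 fold change of the 10 genes stayed between −1.89 and −1.34 over all alternatives that kept controls 1 and 2 together or left out a single array; without both it was −1.01. The number of members called lower was 1 in the main setting. It was 2 with normexp, without dim probes, with a variance trend, with array weights and with gene means over probes (H2-Eb1 joining H2-Aa, or H2-Ob with gene means), 3 without background correction and in the deposited values, and 0 by a plain t-test per probe, with any array left out (0 each time) and without controls 1 and 2. Of the listed pathway genes 2 were called, against 5 with normexp, without background correction and in the deposited values, 4 without dim probes, with a variance trend, with array weights and with gene means, 0 by a plain t-test per probe, 0 to 2 with an array left out and 0 without controls 1 and 2. Over all probes 435 were called, against 856 with normexp, 962 without background correction, 955 in the deposited values, 733 without dim probes, 289 by a plain t-test per probe, 744 with a variance trend, 959 with array weights, 100 to 481 with an array left out and 89 without controls 1 and 2.

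Ciita changed sign with scaling to the 75th percentile (0.069) and without control 1, S539 or S589; with 1 array left out it lay between −0.33 and 0.060. The change of H2-Aa relative to H2-Ab1 was 0.21 with normexp, 0.15 without background correction and 0.13 in the deposited values; that of H2-Oa was 0.52, 0.42 and 0.41. Without controls 1 and 2, H2-Eb1 relative to H2-Ab1 was −0.072 and H2-DMb2 relative to H2-Ab1 was −0.14, a value from signals below background that gives no fold. Of 376 alternative values of single genes and differences, 332 kept direction and side of the threshold, 23 lost a call, 9 gained one and 12 changed sign; the causes were not tested. No paired analysis was possible because the groups share no replicate numbers. Signal near background limits H2-DMb2, H2-Eb2 and the dimmer probes of H2-Ob.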
